A study of Homo sapiens with 36 samples.

Results

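RNA of 46 genes of the nucleolus and of ribosome assembly was examined: nucleolar proteins, assembly factors of both ribosomal subunits and 2 subunits of RNA polymerase I. They were taken from a list of symbols by function, and ribosomal proteins and MYC were kept out. Of the 46, 43 stood under the listed symbol in all 3 expression tables, which hold 60642, 57820 and 13707 genes. UTP4 stood under its older symbol CIRH1A in the HEL counts, and UTP20 and EMG1 had no row in the LDB1 table, so 44 genes were followed there.

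The series measured RNA in 36 libraries from 2 human leukemia cell lines in which a member of the LMO2, LDB1 and TAL1 complex was removed. LMO2 is an adaptor, LDB1 bridges complexes and TAL1 binds DNA. K562, a line of chronic myeloid leukemia in blast crisis with erythroid features, gave 24 libraries from 4 lines: parental cells, a line named LMO2 control, and 2 LMO2 degron lines that are labelled rep 1 and rep 2. Each line was sampled without dTAGv1 on day 0 and with dTAGv1 (750 uM as labelled, where the unit is doubtful) on days 1 and 4, in bio reps 1 and 2. A degron tag lets dTAGv1 mark the tagged protein for breakdown. No source used here says whether the degron lines are single clones or what the LMO2 control line carries. HEL, an erythroleukemia line, gave 9 libraries: 3 electroporated with non-targeting siRNAs and 3 with each of 2 TAL1 siRNA pools. A further K562 set of 3 libraries comprised 1 control shRNA and LDB1 shRNAs 1 and 2.

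Ribosomes are assembled in the nucleolus, where RNA polymerase I transcribes the precursor of the large ribosomal RNAs. Small nucleolar ribonucleoproteins of the box C/D and H/ACA kinds then modify that RNA, and assembly factors fold it, cut it and load ribosomal proteins onto it, along separate routes for the small and the large subunit. Many genes of this pathway are known targets of MYC, a transcription factor of cell growth that binds the E-box CACGTG, and fast-growing leukemia cells carry prominent nucleoli.

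K562 degron libraries held an estimated 17.2 to 26.32 M reads (M for mega), HEL libraries 15.9 to 27.03 M counts. No depth could be had for the LDB1 set. Both knockdown sets showed their target. TAL1 stood at 439, 469 and 491 CPM with non-targeting siRNAs, 165, 191 and 182 with pool 1, and 179.6, 190.5 and 195 with pool 2, where CPM are counts scaled to library size. LDB1 stood at 468 TPM with the control shRNA and 62.4 and 69.6 with LDB1 shRNAs 1 and 2, where TPM are transcripts scaled by length and to a common library total. A degron removes protein, which RNA does not show, and LMO2 RNA did not pass the test on day 4 (0.29 ± 0.34, adjusted p = 0.595). All 10 erythroid markers examined had a row in each table. Their summed level was 166 to 282 FPKM (fragments scaled by gene length and library depth) in the 4 degron-line libraries of day 4, against 483 to 1000 in the 4 control-line libraries of that day. In HEL it was 3280 to 3760 CPM with non-targeting siRNAs and 1500 to 2030 with the TAL1 pools. The 10 markers include TAL1 itself, the target of these siRNAs, so part of that fall is the knockdown. Markers of other blood cells also differed between the K562 groups. On day 4 the 4 monocyte markers summed to 92.1 to 116 FPKM in degron lines and 7.24 to 17.4 in control lines, with CD14 and CSF1R under 1 in every library. The 4 T cell markers summed to 25.4 to 50.9 and 8.15 to 30.0 FPKM, with CD3E and CD2 under 1 in every library. Degron lines were above control lines before dTAGv1 too, at 54.0 to 107 against 7.27 to 19.3 FPKM for T cell and 26.4 to 36.8 against 5.06 to 14.5 for monocyte markers. In HEL the monocyte markers summed to 55.0 to 61.5 CPM with pool 1, 34.4 to 35.6 with pool 2 and 34.3 to 35.6 with non-targeting siRNAs. The part of these shifts in the results that follow was not tested. In bulk RNA, fewer cells of a type and less RNA per cell cannot be told apart.

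The bio reps, as the labels name them, differed for these genes. In the degron set RNA was higher in bio rep 2 than in bio rep 1 for 44 of the 45 genes that passed the filter below, by a median of 0.54 on the log2 scale against -0.02 over all genes, and 23 of them were higher in bio rep 2 in each of the 12 line-by-day groups. NOB1 was the one gene that stood lower in bio rep 2. In HEL, bio rep 1 stood above the mean of bio reps 2 and 3 for 46 of 46 genes, by a median of 0.30 against -0.01 over all genes. MYC was 0.18 higher (log2) in bio rep 2 of the degron set, in 9 of 12 groups. Fits with the bio rep as a block in the model are given beside the main ones for the counts and for genes named with a changed call.

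Levels spanned a wide range. Among the genes that passed the filter, NPM1, the chaperone nucleophosmin, was the most abundant per length at a mean of 401 FPKM over the 24 libraries. FBL, the methyltransferase fibrillarin, followed at 195, NCL, the RNA-binding protein nucleolin, at 124, and NOP10, a small H/ACA protein, at 113. The least abundant were PPAN at 3.73 and UTP15 at 5.65 FPKM. NOP2, a methyltransferase of large subunit RNA, was listed at 0.156 to 0.483 FPKM and so failed the filter of at least 1 FPKM in 2 libraries. The same gene stood at 50.7 TPM with the control shRNA and 28.4 and 29.5 with LDB1 shRNAs 1 and 2 in the other K562 set. In GENCODE 29 a second gene on the same strand, AC006064.6, covers 54.4% of the exonic bases of NOP2, and its own level did not exceed 0.00499 FPKM. Whether this bears on the level of NOP2 was not tested. Of the exonic bases of PPAN 56.0% lie under the readthrough gene PPAN-P2RY11, and of those of LTV1 27.7% under AL049844.3 on the same strand. Opposite-strand genes cover 49.5% of EMG1 (LPCAT3), 31.2% of IMP3 (SNX33), 27.4% of NHP2 (RMND5B), 23.2% of HEATR1 (LGALS8), 20.7% of TSR1 (SRR), 20.2% of NIP7 (COG8) and 20.2% of NOB1 (AC092115.3), and no source used here gives the strand setting of the counting. Values of these 10 genes are therefore less certain. In the degron set AC092115.3 and AL049844.3 stood at 0.0 FPKM in every library, and PPAN-P2RY11 at no more than 0.0419. The other opposite-strand genes named lay between 1.49 (SRR) and 14.2 FPKM (LGALS8). Smaller overlaps, such as 17.1% of NOP14 under NOP14-AS1 (0.98 to 2.59 FPKM), are not listed among the 10.

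The start sites were read for the E-box, because MYC binds it and MYC RNA was lower in the degron lines, as described below. RefSeq (GRCh38.p14) gave 48 promoter windows for 40 of the 46 genes, each from 250 bases before to 50 after a start. CACGTG, which reads the same on both strands, stood in the windows of 18 of the 40 genes (45%), against 8.77% of all 27305 genes with a window and 12.8% of the 9105 with a window among those tested in the degron set. Other assembly factors and polymerase I genes had it in 29.5% of 78 genes, cytosolic ribosomal proteins in 10.5% of 19, and RNA polymerase II subunits in 0 of 8. AGATAA, a site of GATA factors, was searched as AGATAA and TTATCT and stood in 1 of the 40 genes (2.5%) against 12.4% of all and 7.47% of those tested. The median GC content was 63.3% for the 48 windows, 58.7% for all windows and 65% for those of tested genes. Of the 18 E-box copies with 12 bases on both sides in the window, 15 lay within 50 bases of the start. Copies nearer than 12 bases to a window edge were not counted, so these copies do not cover all 18 genes. The 8 copies printed here are a selection from genes whose values are described below, with the copy nearest the start where a gene has several. Not printed are, among others, copies of WDR43 (position 4), RRP9 (-5), UTP20 (-10) and BYSL (29). IMP4 and NOP10 hold another copy at -203 and -170, and that of EBNA1BP2, not printed, lies at -237. Capitals mark the E-box, each run is 30 bases of GRCh38.p14 read along the gene, and positions count from the first transcribed base as 1.
FBL (chr19:39846356-39846385, minus strand, position 7): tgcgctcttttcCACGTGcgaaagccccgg
GAR1 (chr4:109815781-109815810, plus strand, position 32): gggccagaggggCACGTGgcgccggtgagt
GNL3 (chr3:52686026-52686055, plus strand, position 7): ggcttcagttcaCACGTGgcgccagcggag
DDX21 (chr10:68956604-68956633, plus strand, position -31): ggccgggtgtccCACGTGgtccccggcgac
IMP4 (chr2:130342900-130342929, plus strand, position 16): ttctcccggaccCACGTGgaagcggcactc
PES1 (chr22:30591880-30591909, minus strand, position 14): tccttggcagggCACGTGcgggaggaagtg
MRTO4 (chr1:19251807-19251836, plus strand, position 15): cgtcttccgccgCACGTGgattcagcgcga
NOP10 (chr15:34343130-34343159, minus strand, position -11): gaaattgacgaaCACGTGacgcggtcgggc
NOP10 is shown beside the others because its level overlapped that of the control lines on day 4.

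The first comparison asked whether these genes differed between degron and control lines before dTAGv1. Changes were measured on the log2(FPKM + 1) scale in 1 limma model of all 24 libraries, errors beside them are standard errors, and a gene was called at an adjusted p (Benjamini-Hochberg over all 15348 genes tested) under 0.05. On day 0 the 2 degron lines already stood below the control lines, that is parental cells and the LMO2 control taken as one group, in 44 of 45 genes, by a median of -0.44. Over all genes 46.4% were below 0 and the median was 0.02. Of the 45, 3 were lower by the test, where 6.14% of all genes were called lower. They were DKC1, the pseudouridine synthase dyskerin (-0.62 ± 0.11, adjusted p = 0.00124), FBL (-0.43 ± 0.11, adjusted p = 0.0108) and WDR75, a factor of the small subunit processome (-0.47 ± 0.15, adjusted p = 0.0395). With the bio rep as a block 32 were lower, where 12.9% of all genes were. The p-values of both fits measure the spread between bio reps within lines, not the spread between lines. Within a single bio rep, with lines as replicates, DKC1 was called in both bio reps, and FBL and WDR75 in neither. GNL3 and TSR1 were called in bio rep 1 and DDX10 in bio rep 2. The share of all genes called in those fits is not given here. MYC was lower on day 0 as well (-1.02 ± 0.16, adjusted p = 0.000349). The median was -0.71 without bio rep 1 of the parental line, -0.20 without its bio rep 2 (39 of 45 below 0) and -0.29 without bio rep 1 of degron line 1. The count of 3 became 1 without bio rep 1 of degron line 1, without bio rep 1 of degron line 2 or without bio rep 2 of the LMO2 control line, and 7 without bio rep 1 of the parental line.

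The response to dTAGv1 was then measured as the mean change from day 0 in the degron lines minus that in the control lines, called here the degron-specific change. On day 1, 45 of 45 genes had a change below 0, with a median of -0.41, against 44.0% and 0.03 over all genes. That median moved when 1 library was left out, which leaves its group with the other bio rep alone. In the parental line on day 0 the mean level over the 45 genes was 4.48 in bio rep 1 and 5.50 in bio rep 2 (log2(FPKM + 1)). The median change was -0.66 without that bio rep 2 and -0.19 without that bio rep 1 (37 of 45 below 0). It was -0.26 without bio rep 1 of degron line 1 on day 1, -0.24 without bio rep 2 of the LMO2 control on day 1 and -0.27 without bio rep 2 of the parental line on day 1. By the limma test 0 of the 45 were called, where 0.0521% of all genes were called lower, and 3 were lower at an unadjusted p under 0.05 (2.72% of all genes). With the bio rep as a block 2 fell, where 0.625% of all genes did: NOLC1, a nucleolar chaperone of small nucleolar ribonucleoproteins (-0.91 ± 0.15, adjusted p = 0.0118), and FBL (-0.46 ± 0.09, adjusted p = 0.0224), with the errors of that fit. In the degron lines alone, day 1 stood below day 0 in all 4 pairs of equal line and bio rep for 43 of 45 genes, which held for 23.3% of all genes. Control lines moved too: from day 0 to day 1 the change was below 0 for 37 of 45 genes in parental cells (50.9% of all genes). In the LMO2 control it was below 0 for 26 of 45 (59.8%). The medians there were -0.07 and -0.03, against -0.48 and -0.52 in degron lines 1 and 2. MYC fell on day 1 (-1.32 ± 0.22, adjusted p = 0.0399).

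On day 4 the median change was further from 0. Of the 45 genes, 5 fell and 0 rose by the limma test, where 8.18% of all genes were called lower and 11.6% higher. The 5 were FBL, NOB1, DKC1, NOLC1 and NHP2. With the bio rep as a block 26 fell, where 15.6% of all genes did. All 45 changes were below 0, from -1.35 for FBL to -0.14 for IMP3, with a median of -0.61 against 0.06 over all genes. Without bio rep 1 of the parental line on day 0 the median was -0.37, with 41 of 45 below 0. All 4 degron-line libraries of day 4 stood below all 4 control-line libraries of that day for 40 of 45 genes, against 20.2% of all genes. On day 0 the same held for 2 of 45 (5.94% of all genes). Within the degron lines, the 4 libraries of day 4 stood below the 4 of day 0 for 21 of 45 genes (14.1% of all genes), and day 4 stood below day 0 in all 4 pairs of equal line and bio rep for 37 of 45 (25.4%). Within bio rep 1, with lines as replicates, the median was -0.54 and 6 were called. Within bio rep 2 it was -0.70 and 1 was called, and all 45 changes were below 0 in both. By role, the medians were -0.745 for 3 box C/D genes, -0.74 for 4 H/ACA genes, -0.86 for 5 abundant nucleolar proteins, -0.28 for 2 polymerase I subunits, -0.41 for 13 processome genes, -0.71 for 5 late small subunit factors, -0.79 for the 3 genes of the PES1 complex and -0.52 for 10 other large subunit factors. Rescaling the libraries by a trimmed mean moved the split of all called genes from 1784 higher and 1256 lower to 1298 higher and 1499 lower, and 6 of the 45 were then called, all lower. The fall in MYC was larger than on day 1 (-0.83 ± 0.22, adjusted p = 0.0348, for the difference). It went from 29.97 to 34.7 FPKM on day 0 to 8.08 to 16.3 on day 1 and 4.86 to 7.85 on day 4 in the degron lines, and stood at 48.5 to 73.1 in the 12 control-line libraries (-2.14 ± 0.22, adjusted p = 2.15e-05 on day 4). The part of MYC in the changes of the other genes was not tested.

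**Figure D1:**
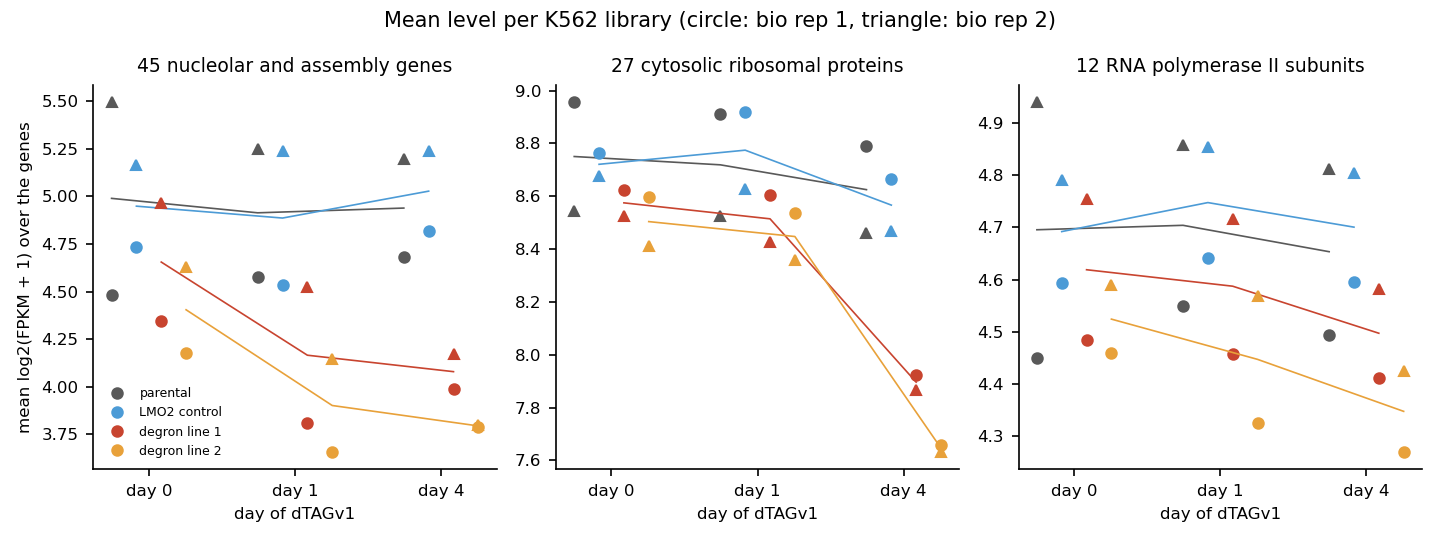
Mean log2(FPKM + 1) in each of the 24 K562 libraries over the 45 nucleolar and assembly genes, over 27 cytosolic ribosomal proteins and over 12 RNA polymerase II subunits, by line and day. Circles are bio rep 1, triangles bio rep 2 and lines join group means. The nucleolar set stands lower in degron lines from day 0 and is lower on day 1 than on day 0 in every degron-line pair. It is also lower on day 1 in bio rep 2 of the parental line and bio rep 1 of the LMO2 control, and higher in their other bio reps. Ribosomal proteins stand lower on day 4 than on day 1. Vertical axes differ and do not start at 0.

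The mean level over the 45 genes shows both the time course and the spread between bio reps. In bio reps 1 and 2 of degron line 1 it was 4.34 and 4.97 on day 0, 3.81 and 4.52 on day 1, and 3.98 and 4.17 on day 4, in log2(FPKM + 1). In degron line 2 it was 4.18 and 4.63, then 3.66 and 4.14, then 3.79 and 3.80. Between days 1 and 4 the mean thus went up in bio rep 1 and down in bio rep 2 of both lines. The 12 control-line libraries lay between 4.48 and 5.50, and the lowest of them was bio rep 1 of the parental line on day 0. Degron-line libraries of day 4 lay between 3.79 and 4.17, below every control-line library.

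**Figure D2:**
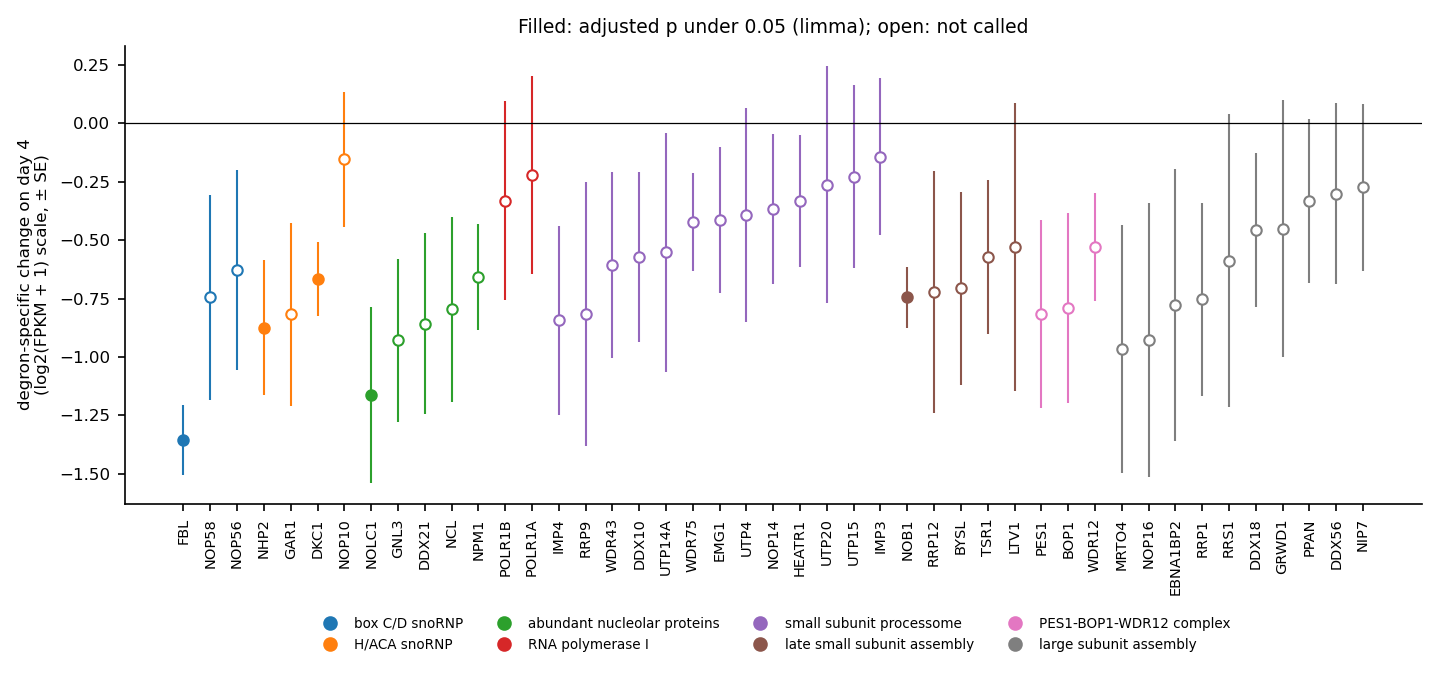
Degron-specific change on day 4 for each of the 45 genes, on the log2(FPKM + 1) scale, with bars of 1 standard error from limma; colours give the role and filled points the 5 genes called. All points lie below 0, FBL lowest at -1.35 and IMP3 highest at -0.14.

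Box C/D ribonucleoproteins place methyl groups on ribosomal RNA. FBL, their methyltransferase, stood in bio reps 1 and 2 of degron line 1 at 185 and 221 FPKM on day 0, 161 and 183 on day 1, and 84.7 and 96.5 on day 4. In degron line 2 it stood at 143 and 172 FPKM on day 0, 121 and 132 on day 1, and 53.97 and 60.03 on day 4. The control lines held 202 to 272, 248 to 292 and 237 to 261 FPKM on the 3 days. Thus the highest degron-line library of day 4 was under 100 FPKM and the lowest control-line library above 200, and FBL fell by the test in both lines taken singly (-1.21 ± 0.18, adjusted p = 0.00128 in line 1, and an adjusted p of 0.000112 in line 2). The degron-specific change was -1.35 ± 0.15 (adjusted p = 3.68e-05) over both lines, and it was called in each of the 16 fits that left out 1 library of day 0 or day 4. Within bio rep 2 alone it was -1.30 and not called (adjusted p = 0.0734). The core proteins of the same particle, NOP56 (-0.63 ± 0.43, adjusted p = 0.335) and NOP58 (-0.74 ± 0.44, adjusted p = 0.259), did not pass and were called with the block (adjusted p = 0.0154 and 0.0392). NOP58 stood at 15.1 to 21.8 FPKM in the degron lines on day 4 and 35.3 to 47.9 in the control lines, with no overlap.

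H/ACA ribonucleoproteins convert uridine to pseudouridine. DKC1, their catalytic subunit, stood in degron line 1 at 52.9 and 67.4 FPKM on day 0, 40.2 and 46.5 on day 1, and 36.02 and 34.7 on day 4, each for bio reps 1 and 2. In line 2 it stood at 49.8 and 59.4 FPKM on day 0, 39.3 and 41.9 on day 1, and 31.99 and 33.1 on day 4. The 12 control-line libraries held 76.1 to 104, so the degron lines were lower on every day, day 0 included. On day 4 its change was -0.67 ± 0.16 (adjusted p = 0.00817), called in 16 of 16 fits without 1 library. NHP2, a core subunit, went from 49.2 and 64.6 to 27.5 and 34.9 FPKM in line 1 and from 42.8 and 46.5 to 22.4 and 23.9 in line 2 between days 0 and 4, against 57.2 to 79.5 in control lines on day 4 (-0.87 ± 0.29, adjusted p = 0.0453; NHP2 was singled out after its value was seen). GAR1 held 18.2 to 34.8 FPKM in degron lines on day 4 and 47.04 to 82.7 in control lines. It had a change of -0.82 ± 0.39 (adjusted p = 0.161) and was called with the block (adjusted p = 0.000507). NOP10, the smallest core protein, held 99.1 to 125 FPKM in degron lines on day 4 and 96.6 to 147 in control lines, which overlap, and its change was -0.15 ± 0.29 (adjusted p = 0.758). NOP10 was also the only one of the 45 that was above 0 on day 0 (0.10 ± 0.20, adjusted p = 0.809).

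**Figure D3:**
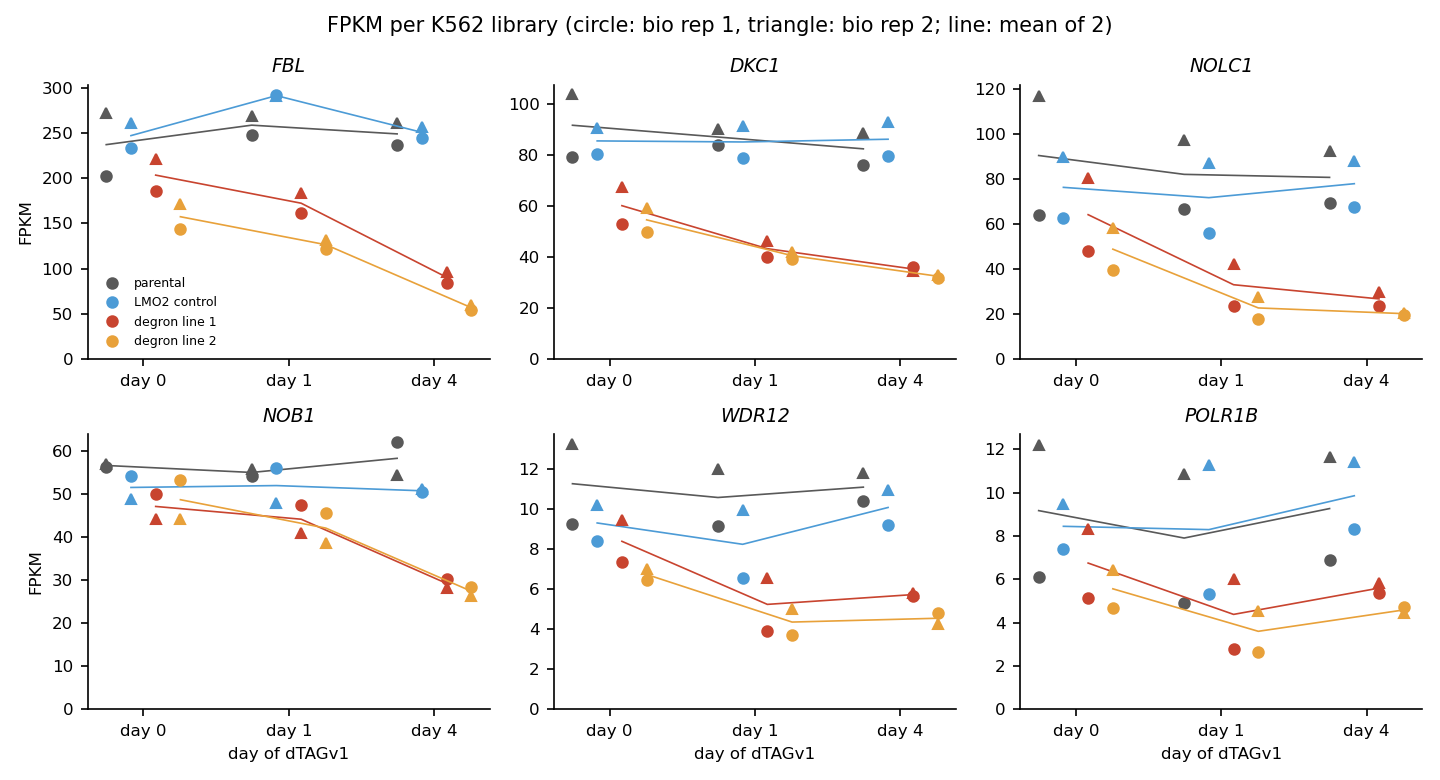
FPKM of FBL, DKC1, NOLC1, NOB1, WDR12 and POLR1B in each of the 24 K562 libraries by line and day; circles are bio rep 1, triangles bio rep 2 and lines join group means, and axes start at 0. Degron-line points of day 4 lie below control-line points of day 4 for all 6 genes, while POLR1B stands higher on day 4 than on day 1 in bio rep 1 of both degron lines.

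The 5 abundant nucleolar proteins had the lowest median of any role on day 4, -0.86. NOLC1 stood in degron line 1 at 47.9 and 80.4 FPKM on day 0, 23.7 and 42.4 on day 1, and 23.5 and 30.01 on day 4, and in line 2 at 39.6 and 58.1 FPKM on day 0, 17.7 and 27.8 on day 1, and 19.7 and 20.7 on day 4. Control lines held 67.7 to 92.2 on day 4, so the groups did not overlap. NOLC1 fell (-1.16 ± 0.38, adjusted p = 0.0409), where its change on day 1 had been -0.91. GNL3, the nucleolar GTPase nucleostemin, was at 13.1 to 18.7 FPKM in the degron lines on day 4 and at 41.4 to 54.2 in control lines (-0.93 ± 0.35, adjusted p = 0.0761). On the same day NPM1 was at 229 to 257 against 438 to 553 FPKM (-0.66 ± 0.23, adjusted p = 0.0555), and NCL at 58.1 to 80.1 against 133 to 188 (-0.80 ± 0.40, adjusted p = 0.178). DDX21, an RNA helicase that works with polymerases I and II, was at 34.2 to 42.9 against 98.7 to 129 FPKM (-0.86 ± 0.39, adjusted p = 0.136). For none of these genes did degron and control lines overlap on day 4, and each of the 5 was called with the block (adjusted p from 5.25e-05 for NOLC1 to 0.0133 for DDX21).

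The calls of NOLC1 and NHP2 lay near the threshold in the main fit, and both were also called with the block. Neither held in every fit without 1 library. NOLC1 was called in 7 of the 16 fits without 1 library, with an adjusted p of up to 0.107. It was lost without bio rep 2 of degron line 1 on day 0, bio rep 1 of degron line 1 on day 4, bio rep 2 of degron line 2 on day 0, either bio rep of degron line 2 on day 4, bio rep 1 of the LMO2 control on day 0, its bio rep 2 on day 4, bio rep 1 of the parental line on day 0 or its bio rep 2 on day 4. NHP2 was called in 5 of 16, with an adjusted p of up to 0.109, and was lost without any of those 9 libraries, without bio rep 1 of degron line 2 on day 0 or without bio rep 2 of the LMO2 control on day 0. The number called was 3 in the fits without 1 of those 9 libraries, and 9 without bio rep 2 of the parental line on day 0.

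RNA polymerase I is represented by its 2 largest subunits. POLR1A stood in degron line 1 at 7.49 and 11.8 FPKM on day 0, 4.04 and 9.35 on day 1, and 8.27 and 9.48 on day 4, and in line 2 at 7.17 and 10.9 FPKM on day 0, 3.31 and 7.02 on day 1, and 7.75 and 7.76 on day 4. POLR1B stood in line 1 at 5.16 and 8.34 FPKM on day 0, 2.76 and 5.996 on day 1, and 5.38 and 5.81 on day 4, and in line 2 at 4.69 and 6.43 FPKM on day 0, 2.64 and 4.55 on day 1, and 4.71 and 4.45 on day 4. In bio rep 1 both were lowest on day 1 and above their day 0 level on day 4, whereas in bio rep 2 they stood below their day 0 level on both later days. Their degron-specific changes on day 4, -0.22 ± 0.42 (adjusted p = 0.762) and -0.33 ± 0.42 (adjusted p = 0.637), did not pass, with the block or without it, although all 4 degron-line libraries of day 4 stood below the control-line ones. POLR1A had the third smallest change of the 45, after IMP3 and NOP10.

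The small subunit processome is the large particle that forms on the growing ribosomal RNA precursor. Of its 13 genes 0 passed the limma test on day 4, 0 had a lower level at an unadjusted p under 0.05, and 4 were called with the block; the median was -0.41. IMP4, a protein that binds the U3 small nucleolar RNA, was lowest. Between days 0 and 4 its FPKM moved from 20.4 and 31.9 to 12.8 and 17.1 (degron line 1) and from 17.8 and 24.3 to 10.3 and 11.9 (line 2), against 24.04 to 43.1 in control lines on day 4 (-0.84 ± 0.40, adjusted p = 0.161, 0.00072 with the block). Its partner IMP3 stood on day 4 at 10.3 to 12.6 against 10.01 to 17.1 FPKM, which overlap, and had the smallest change of all 45 (-0.14 ± 0.34, adjusted p = 0.810). WDR75, a factor tied to early transcription of the precursor, stood in line 1 at 12.6 and 15.4 FPKM on day 0, 7.17 and 11.2 on day 1, and 10.6 and 8.98 on day 4, and in line 2 at 12.1 and 12.8 FPKM on day 0, 7.84 and 8.90 on day 1, and 9.11 and 7.60 on day 4. Control lines held 16.9 to 21.4 FPKM on day 0 and 16.1 to 19.4 on day 4 (-0.42 ± 0.21, adjusted p = 0.175). All degron-line libraries of WDR75 thus stood below the control lines already on day 0. The other 3 called with the block were RRP9 (-0.81, adjusted p = 0.0223), WDR43 (-0.61, 0.0237) and DDX10 (-0.57, 0.0283). The scaffold proteins HEATR1 (-0.33) and UTP20 (-0.26) and the methyltransferase EMG1 (-0.41) were not called by either fit.

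Late steps of small subunit assembly end in the cytoplasm, where NOB1, an endonuclease, makes the last cut in the small subunit RNA. NOB1 stood in degron line 1 at 50.1 and 44.2 FPKM on day 0, 47.4 and 40.9 on day 1, and 30.2 and 28.3 on day 4, and in line 2 at 53.3 and 44.2 FPKM on day 0, 45.6 and 38.6 on day 1, and 28.5 and 26.4 on day 4. Control lines held 50.5 to 62.1 FPKM on day 4. Day 0 values of degron lines overlapped those of control lines (48.9 to 57.1), and day 4 values lay below those of every other library. NOB1 fell on day 4 (-0.74 ± 0.13, adjusted p = 0.00110) and was called in 16 of 16 fits without 1 library, while on day 1 its change was -0.13 ± 0.13 (adjusted p = 0.968). BYSL (-0.71), RRP12 (-0.72) and TSR1 (-0.57), which act on the nascent small subunit, were called with the block only (adjusted p = 0.00585, 0.0185 and 0.023), and LTV1 (-0.53 ± 0.62, adjusted p = 0.598) with neither fit.

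On the large subunit route, PES1, BOP1 and WDR12 form 1 complex needed to process the RNA of the large subunit. WDR12 stood in degron line 1 at 7.32 and 9.42 FPKM on day 0, 3.92 and 6.53 on day 1, and 5.66 and 5.77 on day 4, and in line 2 at 6.46 and 6.98 FPKM on day 0, 3.71 and 4.97 on day 1, and 4.81 and 4.26 on day 4. Control lines held 9.17 to 11.8 FPKM on day 4, above all degron-line values of that day. The change was -0.53 ± 0.23 (adjusted p = 0.124) for WDR12, -0.81 ± 0.40 (adjusted p = 0.175) for PES1 and -0.79 ± 0.41 (adjusted p = 0.195) for BOP1, and each of the 3 was called with the block (adjusted p = 0.0128, 0.00399 and 0.00632). On day 4 PES1 held 10.3 to 16.9 FPKM in degron and 24.8 to 42.1 in control lines, and BOP1 19.8 to 26.8 and 45.8 to 67.1, with no overlap.

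Among the 10 other large subunit factors that were tested, 0 passed on day 4 and 4 were called with the block. MRTO4, which holds the place of the P0 stalk protein, moved between days 0 and 4 from 25.5 and 51.4 to 16.6 and 22.2 FPKM (degron line 1) and from 21.6 and 35.8 to 13.4 and 13.2 (line 2), against 36.3 to 59.4 in control lines on day 4 (-0.97 ± 0.53, adjusted p = 0.224, 0.00713 with the block). NOP16 moved from 9.66 and 19.6 to 5.53 and 7.17 FPKM and from 6.75 and 13.7 to 4.28 and 5.21, against 11.8 to 25.4 (-0.93 ± 0.59, adjusted p = 0.296, 0.00714 with the block). RRP1 stood at 12.6 to 18.96 FPKM in degron lines on day 4 and 22.4 to 42.4 in control lines (-0.75 ± 0.41, adjusted p = 0.222, 0.00546 with the block). In these 3 genes the day 0 values of bio rep 2 were above those of bio rep 1 in every line. The smallest change belonged to NIP7 (-0.27 ± 0.36, adjusted p = 0.642).

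Promoters with and without the E-box were set side by side as a description. The 17 tested genes with CACGTG in a window had a median degron-specific change of -0.46 on day 1 and -0.78 on day 4, ranging from -1.35 to -0.15 on day 4. The 22 tested genes without it had medians of -0.38 and -0.49, and ranged from -0.93 to -0.14. The ranges overlap, and no test was made.

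Genes of the same pathway outside the list had a median nearer to 0 on day 4. Of 89 other assembly factors and polymerase I genes tested, 9 fell and 0 rose (24 and 3 with the block), with a median of -0.30. Inside the list 5 of 45 fell (26 with the block), and 8.18% of all genes were called lower (15.6% with the block). The genes and lists were chosen with earlier results of these data known, and the difference in medians was not tested. Called genes outside the list included RCL1, a protein of the small subunit processome (-0.98 ± 0.14, adjusted p = 0.000274), and NLE1, a large subunit factor (-0.95 ± 0.19, adjusted p = 0.00310). NAT10, an RNA acetyltransferase (-0.70 ± 0.18, adjusted p = 0.0148), and LAS1L (-0.56 ± 0.14, adjusted p = 0.0120) were called too. So were the polymerase I subunits POLR1E (-0.55 ± 0.12, adjusted p = 0.00654) and POLR1H (-0.43 ± 0.14, adjusted p = 0.0366). RNA polymerase II subunits, taken for comparison, had a median of -0.09, with 1 of 12 lower (POLR2H, -0.72 ± 0.11, adjusted p = 0.00032) and 1 higher (POLR2A, 0.50 ± 0.16, adjusted p = 0.0382), and with the block 2 lower and 1 higher. Of 27 cytosolic ribosomal proteins 16 fell (27 with the block), such as RPS6 (-0.78 ± 0.13, adjusted p = 0.000997), with a median of -0.60. On day 1 the median was -0.06 for ribosomal proteins and -0.41 for the 45 nucleolar and assembly genes, and the difference between the lists was not tested.

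What was added after day 1 was measured as the change from day 1 to day 4 in degron lines minus that in control lines. Of the 45 genes 2 fell further, FBL (-0.89 ± 0.15, adjusted p = 0.00274) and NOB1 (-0.61 ± 0.13, adjusted p = 0.0111), where 3.26% of all genes were called lower, and with the block there were again 2, FBL and NOB1 (8.17% of all genes). Neither was called within a single bio rep or in degron line 1 alone, fits with fewer libraries. Within bio rep 1 the median over the 45 was -0.02, with 23 below 0, and within bio rep 2 it was -0.33, with 43 below 0. Over both bio reps the median was -0.18, with 39 below 0 (46% of all genes), against -0.52 for ribosomal proteins, of which 8 of 27 fell (25 with the block). The sign of the median of the 45 turned with single libraries: it was -0.34 without bio rep 2 of the LMO2 control on day 1, 0.03 without bio rep 2 of degron line 1 on day 1 (21 below 0) and 0.02 without bio rep 1 of the LMO2 control on day 1 (20 below 0). It also moved by more than 1.5 times without bio rep 1 of degron line 1 on day 1 or 4, either bio rep of degron line 2 on day 1, either bio rep of the LMO2 control on day 4, or any parental library of day 1 or 4, and stayed below 0 there. POLR1A (0.30 ± 0.42, adjusted p = 0.775) and POLR1B (0.07 ± 0.42, adjusted p = 0.959) were among the 6 above 0.

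Time and dTAGv1 in lines without the degron gave no call. From day 0 to day 4 the control lines changed by a median of 0.01 over the 45 genes, with 18 below 0 (38.8% of all genes). By limma 0 were called, with the block or without it, where 0.0% of all genes were called lower. At an unadjusted p under 0.05 there were 0 as well, against 0.86% of all genes lower. The sign differed between bio reps, with a median of 0.14 and 3 below 0 in bio rep 1 and of -0.13 and 39 below 0 in bio rep 2. It was -0.24 (43 below 0) without bio rep 1 of the parental line on day 0 and 0.27 (1 below 0) without its bio rep 2, and it moved by more than 1.5 times without any one of the 8 libraries. Day 4 changes of degron lines 1 and 2 did not differ in a call either, with 0 of 45 called and 0.00652% of all genes called lower in line 2. In each line taken alone, 3 genes fell on day 4, FBL, NOB1 and DKC1, where 3.3% of all genes were called lower in line 1 and 6.37% in line 2.

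In HEL the design compared each TAL1 siRNA pool with the non-targeting pool. Counts were tested with edgeR (quasi-likelihood test) over 16688 genes. With pool 1 the change was below 0 for 42 of 46 genes, with a median of -0.13 (52.7% of all genes were below 0), and with pool 2 for 43 of 46, with a median of -0.15 (51.3%). Without bio rep 1 of non-targeting the medians were -0.02 (28 of 46 below 0) and -0.03 (29 of 46). Without bio rep 1 of the pool itself they were -0.25 and -0.27, and without bio rep 3 of pool 2 that of pool 2 was -0.08. By the test, 1 gene fell with pool 1 (1.65% of all genes were called lower) and 0 were called with pool 2 (0.563%), where 4 were lower and 1 higher at an unadjusted p under 0.05 (5.72% of all genes were lower) and DESeq2 gave 0 calls. With the bio rep as a block 18 fell and 1 rose with pool 1 (8.81% of all genes were called lower and 8.49% higher), and 14 fell with pool 2 (5.18%). All 3 knockdown libraries stood below all 3 non-targeting ones for 6 of 46 genes with pool 1 (11.7% of all genes) and 3 of 46 with pool 2 (8.6%). Compared within each bio rep, 29 of 46 were lower in all 3 with pool 1 (25.6% of all genes) and 36 of 46 with pool 2 (22.6%).

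NCL was the gene called with pool 1. In bio reps 1, 2 and 3 it stood at 2922, 2335 and 2426 CPM with non-targeting siRNAs, 1966, 1579.7 and 1543 with pool 1, and 2790.3, 2136 and 1945 with pool 2. The pool 1 libraries lay below all non-targeting ones, whereas pool 2 overlapped them. The change was -0.59 ± 0.14 (adjusted p = 0.0366) with pool 1 and -0.16 ± 0.14 (adjusted p = 0.734) with pool 2, and the difference between the pools was -0.43 ± 0.14 (adjusted p = 0.143), called with the block (adjusted p = 1.04e-06). With pool 1 the call held in 3 of the 9 fits without 1 library, with adjusted p from 0.00627 to 0.154. It was lost without any one of the non-targeting libraries, without bio rep 2 or 3 of pool 1, or without bio rep 2 of pool 2. The number of genes called lower was 0 in those 6 fits and 2 without bio rep 1 of pool 1 or of pool 2.

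FBL stood at 248, 245 and 250.2 CPM with non-targeting siRNAs, 219.6, 201 and 183 with pool 1, and 227, 206 and 202 with pool 2, so each knockdown library lay below each control (-0.30 ± 0.08, adjusted p = 0.0713, and -0.23 ± 0.08, adjusted p = 0.301, with the block 0.000466 and 0.0109). NOLC1 stood at 588, 486 and 503 CPM with non-targeting siRNAs, 489, 427 and 419.6 with pool 1, and 503, 410.1 and 387 with pool 2 (-0.24 ± 0.11, adjusted p = 0.273, and -0.28 ± 0.11, adjusted p = 0.327, with the block 0.00203 and 0.000664). Bio rep 1 was the highest of the 3 in every group for NOLC1, and each knockdown value was below the control of its own bio rep. The H/ACA protein NHP2 stood at 43.99, 38.4 and 39.02 CPM with non-targeting siRNAs, 40.1, 33.2 and 24.9 with pool 1, and 40.9, 37.4 and 38.7 with pool 2 (-0.31 ± 0.14, adjusted p = 0.292, and -0.05 ± 0.14, adjusted p = 0.937). BYSL stood at 98.01, 81.1 and 85.8 CPM with non-targeting siRNAs, 81.2, 72.4 and 71.2 with pool 1, and 90.1, 74.00 and 74.1 with pool 2 (-0.24 ± 0.11, adjusted p = 0.268, and -0.15 ± 0.11, adjusted p = 0.642). PES1 stood at 138, 115 and 120.1 CPM with non-targeting siRNAs, 125, 97.5 and 96.1 with pool 1, and 134, 106 and 107 with pool 2 (-0.23 ± 0.12, adjusted p = 0.364, and -0.11 ± 0.12, adjusted p = 0.823). NHP2, BYSL and PES1 each stood below their own bio rep's control in every pair, and each overlapped the controls when bio reps are not paired. With the block NHP2 had adjusted p = 0.0234 for pool 1 and 0.826 for pool 2. BYSL and PES1 passed with the block for pool 1 (adjusted p = 0.0136 and 0.00711) and not for pool 2 (0.152 and 0.303).

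**Figure D4:**
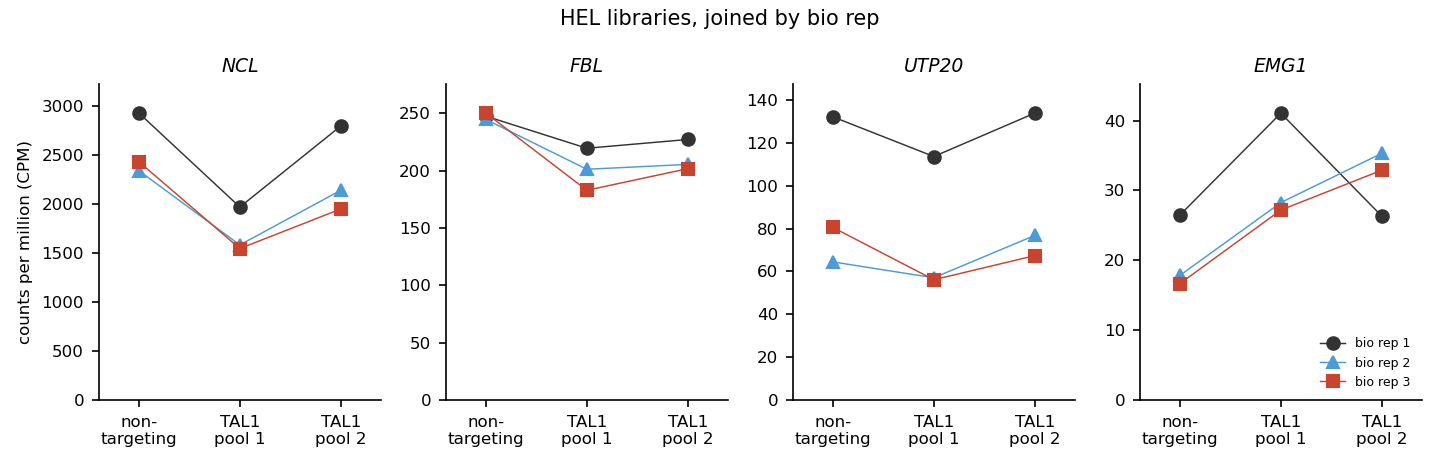
CPM of NCL, FBL, UTP20 and EMG1 in the 9 HEL libraries, joined by bio rep; axes start at 0. NCL is lowest with pool 1, UTP20 differs more between bio rep 1 and the others than between siRNAs, and EMG1 is higher with pool 1 in every bio rep and with pool 2 in bio reps 2 and 3.

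Among the large subunit factors EBNA1BP2 stood at 183, 137 and 154 CPM with non-targeting siRNAs, 151, 125 and 107 with pool 1, and 154, 121 and 107 with pool 2 (-0.30 and -0.30, adjusted p with the block 0.00159 and 0.00273). The helicase DDX18 stood at 366, 297 and 326 CPM with non-targeting siRNAs, 302, 279.9 and 270.2 with pool 1, and 321, 285 and 257 with pool 2 (-0.21 and -0.20, with the block 0.0108 and 0.0296). RRS1 stood at 53.9, 36.5 and 40.3 CPM with non-targeting siRNAs, 38.8, 33.3 and 35.8 with pool 1, and 41.2, 35.7 and 32.5 with pool 2 (-0.28 and -0.26, with the block 0.0433 and 0.0836). In all 3 genes each knockdown library was below the control of its own bio rep, and bio rep 1 was the highest in every group. Of the processome, IMP3 stood at 58.00, 49.3 and 48.5 CPM with non-targeting siRNAs, 47.8, 40.7 and 36.8 with pool 1, and 53.97, 45.4 and 44.8 with pool 2 (-0.31 ± 0.12, adjusted p = 0.187, and -0.11 ± 0.12, adjusted p = 0.803, with the block 0.00458 and 0.432). DDX10, an RNA helicase, had the lowest change with pool 2, from 92.3, 75.1 and 73.9 CPM to 77.1, 57.6 and 54.3 (-0.35 ± 0.14, adjusted p = 0.331, with the block 0.00123), and stood at 82.7, 67.7 and 71.9 with pool 1 (-0.12 ± 0.14, adjusted p = 0.724). UTP20 stood at 132, 64.5 and 80.5 CPM with non-targeting siRNAs, 114, 57.1 and 56.1 with pool 1, and 134, 76.8 and 67.4 with pool 2. Its bio rep 1 was far above the others in every group, and its change with pool 2 was 0.01 ± 0.41. With pool 1 each library of UTP20 was below the control of its own bio rep, and UTP20 was called lower with the block.

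EMG1, a methyltransferase of small subunit RNA, had the highest change of the 46 in both pools. It stood at 26.5, 17.8 and 16.7 CPM with non-targeting siRNAs, 41.1, 28.3 and 27.2 with pool 1, and 26.3, 35.3 and 32.9 with pool 2. With pool 1 each bio rep was above its own control, and with pool 2 bio rep 1 was level with its control while bio reps 2 and 3 were above theirs. The changes were 0.66 ± 0.20 (adjusted p = 0.0933) and 0.63 ± 0.20 (adjusted p = 0.220), called with the block for pool 1 (adjusted p = 0.0398) and not for pool 2 (0.0627). LPCAT3, whose exons overlap those of EMG1 on the opposite strand, had changes of -0.36 (adjusted p = 0.0857) and -0.18 (adjusted p = 0.571), opposite in sign. PPAN (0.17 and 0.01) and BOP1 (0.21 and -0.27) were above 0 with pool 1 and not called. PPAN stood at 22.7, 20.8 and 18.95 CPM with non-targeting siRNAs, 28.8, 20.95 and 20.5 with pool 1, and 22.1, 20.1 and 20.6 with pool 2. BOP1 stood at 9.05, 9.95 and 8.49 CPM with non-targeting siRNAs, 14.2, 10.3 and 7.18 with pool 1, and 7.78, 7.88 and 7.04 with pool 2. Both overlapped the controls with pool 1, whereas with pool 2 all BOP1 values lay below the controls. The mean of BOP1 with non-targeting siRNAs was 9.16 CPM against 125 for its partner PES1. In the degron set BOP1 stood above PES1, at means of 43.6 and 25.2 FPKM. CPM are not scaled by gene length, the reason was not tested, and BOP1 values in HEL are less certain. POLR1B stood at 142, 109 and 109 CPM with non-targeting siRNAs, 124, 108 and 109 with pool 1, and 126, 104 and 100.1 with pool 2 (-0.08 ± 0.12, adjusted p = 0.809, and -0.12 ± 0.12, adjusted p = 0.771).

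MYC in HEL stood at 589, 687 and 669 CPM with non-targeting siRNAs, 546, 530.1 and 527 with pool 1, and 532, 534 and 596 with pool 2. Its changes, -0.28 ± 0.08 (adjusted p = 0.0724) and -0.23 ± 0.08 (adjusted p = 0.260), were called with the block only (adjusted p = 0.000967 and 0.0103). The median change was 0.02 and 0.05 for the 27 ribosomal proteins, of which 1 was lower in both pools (RPS9, -1.89 ± 0.27, adjusted p = 0.00482, and -1.75 ± 0.27, adjusted p = 0.0172; it was singled out after its values were seen), and -0.17 and -0.10 for the 12 polymerase II subunits, of which 0 were called (5 lower with the block for pool 1 and 0 for pool 2). Beside them the medians of -0.13 and -0.15 for the 46 genes stood near those of the polymerase II subunits. Pools 1 and 2 share their controls, and the test between the pools called 0 of 46 genes (1.08% of all genes were called lower), with 1 lower and 1 higher at an unadjusted p under 0.05 (7.6% of all genes were lower). With the block 4 were called, NCL and UTP20 lower with pool 1 and DDX10 and POLR1A higher, where 7.09% of all genes were called lower. An alternative fit left out bio rep 1 and was chosen after the data were seen, because bio rep 1 stood apart for these genes. In it 12 fell and 1 rose with pool 1, 13 fell and 1 rose with pool 2, and 6 differed between the pools. The share of all genes called in that fit is not given here, so these counts have no background beside them.

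The LDB1 set has 1 library per group, so differences there have no replicate check and no test. The log2 ratio of (TPM + 1) to the control shRNA was below 0 with both shRNAs for 43 of 44 genes, against 34.5% of the 12445 genes with a highest TPM of at least 5. Both shRNAs share that control. The medians were -0.53 and -0.53, against 0.18 and 0.13 over all genes, -0.34 and -0.38 over 88 other assembly and polymerase I genes, -0.54 and -0.35 over 27 ribosomal proteins and 0.07 and -0.10 over 11 polymerase II subunits. MYC stood at 294 TPM with the control shRNA and 119 and 179 with LDB1 shRNAs 1 and 2.

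With both shRNAs 4 genes were at or under a log2 ratio of -1 (2.21% of all genes) and 20 at or under -0.5 (10.3%). RRS1, a large subunit factor that helps load the 5S ribonucleoprotein, stood at 59.7 TPM with the control shRNA and 29.1 and 21.8 with LDB1 shRNAs 1 and 2. The helicase DDX18 stood at 38.7 TPM with the control shRNA and 16.4 and 16.3 with LDB1 shRNAs 1 and 2. GAR1 stood at 263 TPM with the control shRNA and 127 and 106 with LDB1 shRNAs 1 and 2. DDX21 stood at 238 TPM with the control shRNA and 104 and 114 with LDB1 shRNAs 1 and 2. These 4 genes belong to 3 roles: H/ACA, abundant nucleolar proteins and large subunit assembly. FBL stood at 774 TPM with the control shRNA and 515 and 422 with LDB1 shRNAs 1 and 2. NCL stood at 317 TPM with the control shRNA and 186 and 173 with LDB1 shRNAs 1 and 2. NPM1, the most abundant, had ratios of -0.43 and -0.31, and IMP4, the lowest processome gene in the degron set, ratios of -0.13 and -0.11. NOP10 was the one gene above 0 with both, at 303 TPM with the control shRNA and 333 and 330.0 with LDB1 shRNAs 1 and 2.

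**Figure D5:**
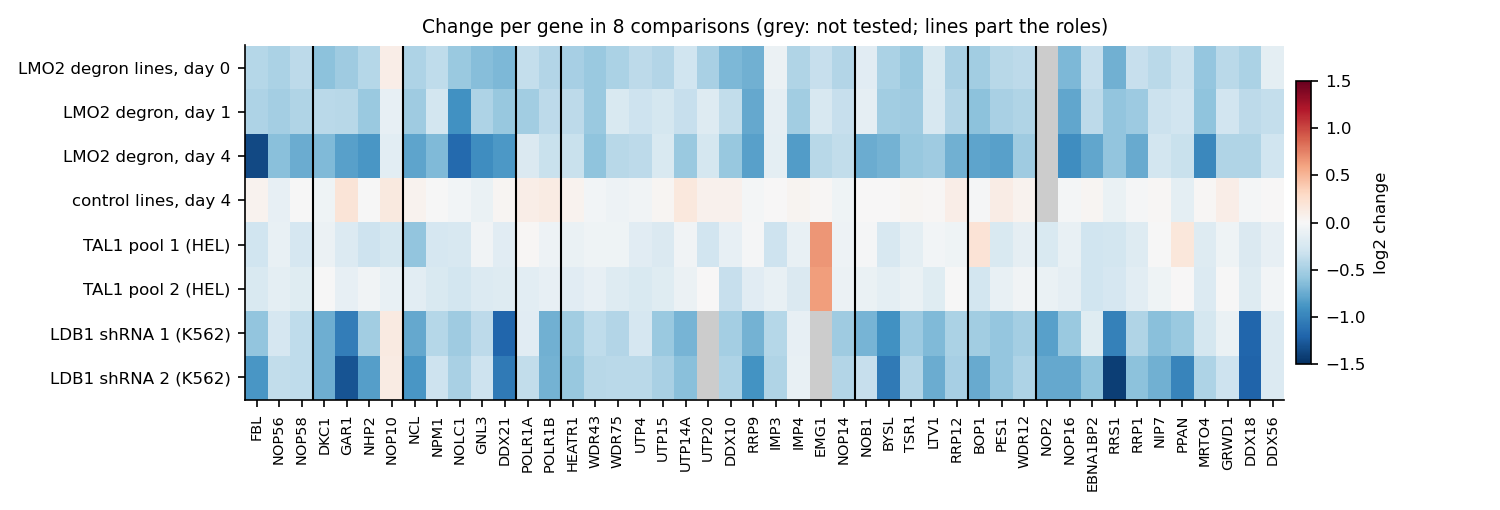
Log2 change of each gene in 8 comparisons: degron against control lines on day 0, degron-specific change on days 1 and 4, control lines from day 0 to day 4, both TAL1 pools in HEL and both LDB1 shRNAs in K562. Blue is lower and red higher, grey marks genes not tested or without a row, and black lines part the 8 roles; the degron and LDB1 rows are blue for nearly all genes, the HEL rows are paler, NOP10 is red on day 0 and with both LDB1 shRNAs, and EMG1 is red in both HEL rows.

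Side by side, the members gave a largely common sign with differing order. FBL had the lowest change of the 45 tested in the degron set on day 4 and ratios of -0.59 and -0.87 with LDB1 shRNAs. GAR1, DDX18 and RRS1, the lowest with LDB1 shRNAs together with DDX21, had day 4 changes of -0.82, -0.45 and -0.59 in the degron set and -0.20, -0.21 and -0.28 with TAL1 pool 1. NOP10 stood near or above 0 in both K562 sets and at -0.27 and -0.11 in HEL. There each knockdown library of NOP10 was below the control of its own bio rep, and the block fit called it lower with pool 1 and not with pool 2. The 3 sets differ in cell line, agent, duration and unit, so these values are given without a test. The labels call the libraries bio reps without saying whether they came from separate cultures, so p-values measure the spread between these libraries, which may be technical.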

How the data were processed

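RNA-seq of 36 libraries was used as deposited. Per the submitters' processing notes, FastQC, STAR, featureCounts and hg19 were used, and roles, versions and annotation are not stated in any source used here. The authors deposited FPKM values for the LMO2 degron set, gene counts for HEL and TPM values for the LDB1 set. The genes and lists were chosen with earlier results of these data known.

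FPKM values were tested as log2(FPKM + 1) with limma 3.58.1 (R 4.3.3; trend and robust options) over 15348 genes with at least 1 FPKM in 2 libraries, in 1 model of 12 line-by-day groups. Counts were tested with the quasi-likelihood test of edgeR 4.0.16 (trimmed-mean scaling, its default low-count filter, 16688 genes), with DESeq2 1.42.0 as an alternative. Benjamini-Hochberg adjusted p under 0.05 was a call. CPM values are from counts scaled by trimmed means. Depth of the FPKM libraries was estimated from the size of 1 read in 723 short genes. Among genes with 6 or more values above 0, 52.2% of values came out whole within 0.01, so no count test was made on them. TPM had no test, and log2 ratios used (TPM + 1). Scripts were tested on simulated data.

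The labels give groups and bio rep numbers. Deviations of libraries with the same number correlated above 0.1 in 66 of 66 pairs of degron-set groups (0.119 to 0.662). In HEL this held for 9 of 9 pairs (0.171 to 0.561, median 0.224). However, 6 of 18 HEL pairs with different numbers were above 0.1 as well (-0.445 to 0.357, median -0.278). The pairing is thus less clear in HEL. The numbers were taken to pair the libraries, and fits with the bio rep as a block stand beside the results. Values per library were given for the gene with the smallest p in each role (2 in roles of 10 or more genes) on day 4 and in either TAL1 pool, and for the 5 lowest and 3 highest changes of these. Of each comparison list the 2 genes with the smallest p on day 4 were named, apart from 1 that is not reported here. Other genes given with values, such as NHP2 on day 4, NOP58, NPM1 and RPS9, were chosen after their values were seen. Alternatives changed the pseudocount, low-value filter, scaling, block, control line, degron line, bio rep and each single library.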

Additional observations from a re-analysis of the deposited data

How the results depend on the processing

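All counts here are of nucleolar and assembly genes called. With the bio rep as a block they became 32 on day 0, 2 on day 1, 26 on day 4, 19 for pool 1, 14 for pool 2 and 4 between the pools, and the block changed no other count by more than 1.5 times. On day 4 the count was 3 with no filter on low values, 1 within bio rep 2, 2 with the parental line as the sole control, and 3 in degron line 1 or degron line 2 alone. For day 4 minus day 1 it was 0 within bio rep 1, 0 within bio rep 2 and 0 in degron line 1 alone. Pool 1 gave 3 with DESeq2 (2 lower, 1 higher), 2 with no filter and 13 without bio rep 1, an alternative chosen after seeing the data. Pool 2 gave 1 with no filter and 14 without bio rep 1, and the test between the pools gave 1 and 6 in the same order. Shares of all genes are not given for the fits without bio rep 1. The LDB1 threshold of 0.5 gave 20 genes in place of 4. Without each library in turn the counts ranged from 1 to 7 on day 0, 3 to 9 on day 4, 2 to 2 for day 4 minus day 1, 0 to 2 for pool 1, and 0 to 0 on day 1, for the control lines, between degron lines, for pool 2 and between pools. Line 2 minus line 1 within a single bio rep could not be fitted, having no residual degrees of freedom.

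Of the values of single genes under the alternatives, 671 kept their direction and side of the threshold, 42 crossed to a call, 23 lost one and 17 changed sign. Leaving out 1 library at a time, the day 4 change ranged from -0.50 to 0.057 for POLR1A and from -0.39 to 0.11 for IMP3, lowest without bio rep 2 and highest without bio rep 1 of the parental line on day 0. IMP3 was also above 0 without bio rep 2 of degron line 1 on day 0 (0.0075), of the LMO2 control on day 4 (0.0038) or of the parental line on day 4 (0.0053). With pool 1, POLR1B ranged from -0.14 to 0.062 (above 0 without bio rep 1 of non-targeting). PPAN ranged from -0.0072 to 0.26 and BOP1 from -0.068 to 0.42, both below 0 without bio rep 1 of pool 1. With pool 2, NHP2 ranged from -0.089 to 0.013 and POLR1B from -0.23 to 0.015, both above 0 without bio rep 1 of non-targeting. UTP20 ranged from -0.36 (without bio rep 1 of pool 2) to 0.36, and was below 0 without bio rep 2 (-0.20) or 3 (-0.083) of non-targeting. PPAN ranged from -0.053 (without bio rep 3 of non-targeting) to 0.076, and was at -0.027 without bio rep 1 of pool 2. Without all libraries of bio rep 1, POLR1B was at 0.016 and BOP1 at -0.055 with pool 1. The cause was not tested. Where 1 library was left out, its group kept only the other bio reps, and bio reps differed for these genes. With 2 libraries per line and day the precision for genes that differ between bio reps is low, and the LDB1 set has no error.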
